A study of Mus musculus with 20 samples.

Results

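The 33 genes described here are expressed in the G2 phase of the cell cycle and in mitosis, and encode the cyclins, kinases, centromere proteins, spindle proteins and chromosome proteins of cell division. They were chosen by name, with no measured value in the rule, but with earlier results of these data known. All 33 were found among the 27916 genes shared by the tables used. Their transcripts were followed in 4 single-cell RNA sequencing libraries of tumour-infiltrating CD8 T cells, prepared with droplet-based 10x Chromium 3′ chemistry (version 2). OT-I T cells, whose receptor recognises an ovalbumin peptide, were collected 8 days after transfer into mice bearing B16-OVA, a mouse melanoma line made to express ovalbumin. The transferred cells were Tet2KO with anti-PD-L1, Tet2KO untreated, WT with anti-PD-L1 or WT untreated, with 1 library each, and all 4 groups shared the OT-I receptor, the tumour line and the day of collection. Tet2KO cells came from Tet2-/- mice crossed with OT-1 mice, so Tet2, which oxidises the methyl group of methylcytosine, was lost in the whole donor animal and not only in T cells. The genotype names the donor of the T cells. The sources used here do not give the genotype of the recipient mice or the number of animals behind a library, and macrophages and melanoma cells in a Tet2KO library are therefore cells of a tumour that received Tet2KO T cells. With 1 library in each group no difference has a replicate check and no test between groups was possible. Intervals are 95% intervals that cover counting error only.

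Genes of this kind are mostly silent in resting T cells. As a stimulated cell passes through the cycle, transcription factors of the E2F family switch on genes of DNA replication first, and later the MuvB complex with B-Myb and FoxM1 switches on the genes of G2 and mitosis. Cyclin B with Cdk1 then drives entry into mitosis, Polo and Aurora kinases build the spindle, and the anaphase-promoting complex with Cdc20 ends it by marking cyclin B and other proteins for destruction. T cells that meet their antigen divide rapidly, and in tumours many infiltrating CD8 T cells carry transcripts of this programme.

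Promoters of G2 and mitosis genes are known for a pair of short elements, the cell cycle genes homology region (TTTGAA), which MuvB complexes bind, and the CCAAT box, which the factor NF-Y binds. RefSeq promoter windows on GRCm38.p6, from 250 bases before to 50 bases after the annotated start, were at hand for 27 of the 33 members, and the first window of each gene was searched for both motifs on both strands. TTTGAA was found in 20 of 27 members' windows (74.1%) and in 18.1% of the first windows of all 27025 genes. CCAAT was found in 24 of 27 (88.9%), against 37.9% of all genes, and both together in 20 of 27 (74.1%), against 7.12%. The matches of the 2 motifs overlapped each other in 1 of the members' 28 windows. A match is a run of letters and not a measured binding site, and no binding was measured here. Windows of 4 members are shown because the results turn on them: Plk1, Cdc20 and Ccnb1 stood farthest apart between the untreated libraries, and Mki67, the usual marker of dividing cells, did not. They are written 5′ to 3′ on the gene's own strand, with TTTGAA and CCAAT, or their reverse complements, in capitals.
Plk1, chr7:122159185-122159484, plus strand: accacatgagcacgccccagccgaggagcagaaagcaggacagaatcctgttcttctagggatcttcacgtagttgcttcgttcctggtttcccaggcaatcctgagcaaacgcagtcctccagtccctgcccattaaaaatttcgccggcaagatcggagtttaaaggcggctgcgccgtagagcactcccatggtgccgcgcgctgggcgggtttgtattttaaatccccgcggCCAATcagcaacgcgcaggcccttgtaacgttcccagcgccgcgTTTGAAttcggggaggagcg
Cdc20, chr4:118437294-118437593, minus strand: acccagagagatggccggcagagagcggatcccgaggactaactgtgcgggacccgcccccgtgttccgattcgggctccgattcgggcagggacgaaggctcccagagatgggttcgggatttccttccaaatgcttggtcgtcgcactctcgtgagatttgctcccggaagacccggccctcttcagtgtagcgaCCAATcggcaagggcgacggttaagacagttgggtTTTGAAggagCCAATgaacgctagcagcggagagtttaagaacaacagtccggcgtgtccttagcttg
Ccnb1, chr13:100786437-100786736, minus strand: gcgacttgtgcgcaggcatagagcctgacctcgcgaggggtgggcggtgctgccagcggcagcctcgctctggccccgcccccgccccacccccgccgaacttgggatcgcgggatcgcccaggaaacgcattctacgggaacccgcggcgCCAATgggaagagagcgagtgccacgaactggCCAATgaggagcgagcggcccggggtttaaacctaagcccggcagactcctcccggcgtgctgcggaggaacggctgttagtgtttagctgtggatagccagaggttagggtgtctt
Mki67, chr7:135716330-135716629, minus strand: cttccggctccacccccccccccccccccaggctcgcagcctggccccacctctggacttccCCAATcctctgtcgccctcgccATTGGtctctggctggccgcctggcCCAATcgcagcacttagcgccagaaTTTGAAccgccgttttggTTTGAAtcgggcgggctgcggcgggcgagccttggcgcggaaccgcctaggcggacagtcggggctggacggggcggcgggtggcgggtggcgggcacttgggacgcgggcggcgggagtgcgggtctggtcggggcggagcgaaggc
The Plk1 window holds 1 match of each motif, the Cdc20 window 1 TTTGAA and 2 CCAAT, the Mki67 window 2 TTTGAA and 3 CCAAT, and the Ccnb1 window 2 CCAAT and no TTTGAA.

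Depth and cell types came first. After removal of barcodes with under 500 genes or over 10% mitochondrial UMIs, 1277 and 2221 cells remained in Tet2KO (anti-PD-L1 and untreated) and 1603 and 2297 in WT. A UMI, or unique molecular identifier, counts 1 captured molecule. CD8 T cells were the clusters with CD8 and CD3 transcripts. Every cell of the class held at least 1 UMI of a CD8 or CD3 gene or of Trac, a T cell receptor gene. They numbered 1026 (anti-PD-L1) and 1551 (untreated) in Tet2KO, against 1319 (anti-PD-L1) and 1124 (untreated) in WT, with median totals of 6840 UMIs (anti-PD-L1) and 4413 UMIs (untreated) in Tet2KO, against 5432 UMIs (anti-PD-L1) and 3750 UMIs (untreated) in WT. Tet2, the deleted gene, was at 17.9 CPM (anti-PD-L1) and 23.1 CPM (untreated) in Tet2KO, against 15.8 CPM (anti-PD-L1) and 13.4 CPM (untreated) in WT in CD8 T cells (CPM, UMIs per 1000000 UMIs of the class). It was not lower in the libraries labelled Tet2KO. A 3′ tag may lie outside the deleted segment, whose position the labels do not give, so this level checks nothing about the genotype. Most CD8 T cells of the WT untreated library fell in clusters of their own, cluster 14 with 55.4% of them (led by Dapl1, Slamf6 and Tcf7 but also by haemoglobin genes) and cluster 4 with 38.2% (led by Serpinb9b, Gldc and granzymes), while cells of the other libraries lay mostly in clusters 0, 2, 3, 5 and 7, so that this library stands apart from the rest. Haemoglobin transcripts, which belong to red blood cells, were among the leading genes of 3 CD8 clusters, though not the first. These clusters held 20.4% (anti-PD-L1) and 16.1% (untreated) in Tet2KO, against 28.4% (anti-PD-L1) and 55.96% (untreated) in WT of the class, and the shares below are also given without them. The haemoglobin level itself was lowest in untreated WT CD8 T cells, at 140 CPM. It was 659 CPM in WT with anti-PD-L1, and 277 CPM (anti-PD-L1) and 483 CPM (untreated) in Tet2KO.

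In CD8 T cells the 33 members together made up 5521 CPM in Tet2KO and 4606 CPM in WT under anti-PD-L1, and 6584 CPM in Tet2KO and 8433 CPM in WT without it. WT cells without anti-PD-L1 had the highest summed level and WT cells with anti-PD-L1 the lowest, and both Tet2KO libraries lay between them. The members are taken below by their roles.

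Cyclins and partners of Cdk1 came highest in untreated WT cells. Cdk1, the kinase that drives a cell into mitosis, was at 89.5 CPM (anti-PD-L1) and 89.99 CPM (untreated) in Tet2KO, against 67.3 CPM (anti-PD-L1) and 156 CPM (untreated) in WT. Ccnb1 encodes the cyclin B that Cdk1 needs for this step, and stood at 55.4 CPM (anti-PD-L1) and 57.03 CPM (untreated) in Tet2KO, against 33.4 CPM (anti-PD-L1) and 119.7 CPM (untreated) in WT. The other cyclin B, Ccnb2, had 103 CPM in Tet2KO and 98.03 CPM in WT under anti-PD-L1, and 129.8 CPM in Tet2KO and 228 CPM in WT without it. In each of the 3 the untreated WT library was alone at the top. Ccna2, the cyclin that acts in S phase and G2, was at 103 CPM (anti-PD-L1) and 108 CPM (untreated) in Tet2KO, against 74.8 CPM (anti-PD-L1) and 148 CPM (untreated) in WT. Cks1b and Cks2 are small proteins that bind cyclin-dependent kinases. Cks1b had 261 CPM in Tet2KO and 218 CPM in WT under anti-PD-L1, and 338 CPM in Tet2KO and 407 CPM in WT without it, and Cks2 had 211 CPM in Tet2KO and 190.2 CPM in WT under anti-PD-L1, and 258 CPM in Tet2KO and 374 CPM in WT without it. Within Tet2KO the levels with and without anti-PD-L1 were close for Ccna2, Ccnb1 and Cdk1, whereas the WT levels differed by more than 1.5-fold for all 6 genes.

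Among the mitotic kinases, Plk1 had the widest range as a fold between its highest and lowest library. It encodes Polo-like kinase, which acts from mitotic entry to cytokinesis, and its level was 30.9 CPM (anti-PD-L1) and 29.3 CPM (untreated) in Tet2KO, against 18.6 CPM (anti-PD-L1) and 73.98 CPM (untreated) in WT. Aurka, the Aurora kinase of the spindle poles, was at 27.9 CPM (anti-PD-L1) and 26.6 CPM (untreated) in Tet2KO, against 16.6 CPM (anti-PD-L1) and 40.6 CPM (untreated) in WT. Aurkb, the Aurora kinase of the chromosomal passenger complex, had 51.04 CPM in Tet2KO and 43.6 CPM in WT under anti-PD-L1, and 63.2 CPM in Tet2KO and 101 CPM in WT without it. All 3 were highest in untreated WT cells and lowest in WT cells with anti-PD-L1. Bub1 and Bub1b encode kinases of the spindle checkpoint, which delays anaphase until chromosomes are attached. Bub1b was at 21.7 CPM (anti-PD-L1) and 23.7 CPM (untreated) in Tet2KO, against 15.2 CPM (anti-PD-L1) and 34.4 CPM (untreated) in WT. Bub1, at 13.7 CPM in Tet2KO and 11.6 CPM in WT under anti-PD-L1, and 16.5 CPM in Tet2KO and 29.3 CPM in WT without it, averaged under 20 CPM, the floor below which no fold was called.

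Of the centromere, kinetochore and passenger complex genes, Cenpa alone was not highest by CPM in untreated WT cells. It encodes the histone variant that marks centromeres, and stood at 489 CPM (anti-PD-L1) and 589 CPM (untreated) in Tet2KO, against 401 CPM (anti-PD-L1) and 539.7 CPM (untreated) in WT. Birc5, or survivin, and Cdca8, or borealin, are subunits of the passenger complex. Birc5 had 235 CPM in Tet2KO and 193 CPM in WT under anti-PD-L1, and 289.9 CPM in Tet2KO and 395 CPM in WT without it, and Cdca8 had 109 CPM in Tet2KO and 93.04 CPM in WT under anti-PD-L1, and 131 CPM in Tet2KO and 228 CPM in WT without it. Cenpe is a kinetochore motor protein, at 39.96 CPM (anti-PD-L1) and 42.1 CPM (untreated) in Tet2KO, against 25.1 CPM (anti-PD-L1) and 53.8 CPM (untreated) in WT. Cenpf, another kinetochore protein, was at 51.8 CPM (anti-PD-L1) and 69.8 CPM (untreated) in Tet2KO, against 47.98 CPM (anti-PD-L1) and 90.9 CPM (untreated) in WT. Spc25, a subunit of the Ndc80 complex that holds microtubules, had 45.1 CPM in Tet2KO and 31.7 CPM in WT under anti-PD-L1, and 37.1 CPM in Tet2KO and 48.2 CPM in WT without it. Its levels in Tet2KO with anti-PD-L1 and in untreated WT cells lay close together.

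The 3 genes of protein destruction were also highest in untreated WT cells. Cdc20 activates the anaphase-promoting complex, and was at 71.6 CPM (anti-PD-L1) and 79.5 CPM (untreated) in Tet2KO, against 50.2 CPM (anti-PD-L1) and 177 CPM (untreated) in WT. Ube2c, the enzyme that hands ubiquitin to that complex, had 183 CPM in Tet2KO and 159 CPM in WT under anti-PD-L1, and 209 CPM in Tet2KO and 281 CPM in WT without it. Cdca3 takes part in the destruction of Wee1, a kinase that restrains Cdk1, and was at 113 CPM (anti-PD-L1) and 162 CPM (untreated) in Tet2KO, against 97.4 CPM (anti-PD-L1) and 182 CPM (untreated) in WT. The spread between libraries was widest for Cdc20, which in untreated WT cells exceeded each of the other 3 libraries by more than 2-fold.

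The 9 spindle and cytokinesis genes were all highest in untreated WT cells. Kif20a is a kinesin of cytokinesis, at 20.4 CPM (anti-PD-L1) and 20.6 CPM (untreated) in Tet2KO, against 12.8 CPM (anti-PD-L1) and 33.6 CPM (untreated) in WT. Tubb4b, a beta-tubulin, had 232 CPM in Tet2KO and 172 CPM in WT under anti-PD-L1, and 243 CPM in Tet2KO and 417 CPM in WT without it. Nusap1 bundles spindle microtubules, and was at 74.8 CPM (anti-PD-L1) and 80.6 CPM (untreated) in Tet2KO, against 71.4 CPM (anti-PD-L1) and 128 CPM (untreated) in WT. Tpx2 activates the Aurora kinase of the spindle, and had 50.9 CPM in Tet2KO and 38.8 CPM in WT under anti-PD-L1, and 56.9 CPM in Tet2KO and 78.5 CPM in WT without it. Tacc3 stabilises spindle microtubules and was at 57.9 CPM (anti-PD-L1) and 60.9 CPM (untreated) in Tet2KO, against 46.4 CPM (anti-PD-L1) and 93.4 CPM (untreated) in WT. Prc1 bundles the microtubules of the spindle midzone, with 36.8 CPM in Tet2KO and 28.4 CPM in WT under anti-PD-L1, and 35.1 CPM in Tet2KO and 46.6 CPM in WT without it. All 3 were lowest in WT cells with anti-PD-L1. Stmn1, a protein that destabilises microtubules and is also made outside mitosis, was at 662 CPM (anti-PD-L1) and 823 CPM (untreated) in Tet2KO, against 599 CPM (anti-PD-L1) and 925 CPM (untreated) in WT. Kif11, the motor that separates the spindle poles, had 27.1 CPM in Tet2KO and 21.7 CPM in WT under anti-PD-L1, and 25.3 CPM in Tet2KO and 32.1 CPM in WT without it, the smallest range of the group as a fold. Kif23, a motor of the central spindle, averaged under the floor, at 16.1 CPM (anti-PD-L1) and 16.3 CPM (untreated) in Tet2KO, against 13.5 CPM (anti-PD-L1) and 22.7 CPM (untreated) in WT.

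Of the 4 chromosome genes, Mki67 and Top2a had nearly equal CPM in the untreated pair. Mki67 coats mitotic chromosomes and is the usual marker of dividing cells, and was at 86.9 CPM (anti-PD-L1) and 108 CPM (untreated) in Tet2KO, against 69.05 CPM (anti-PD-L1) and 104 CPM (untreated) in WT. Top2a untangles DNA before chromosomes part, and had 194 CPM in Tet2KO and 166 CPM in WT under anti-PD-L1, and 278 CPM in Tet2KO and 267 CPM in WT without it. The untreated Tet2KO level was 1.04-fold the untreated WT level for Mki67 and 1.04-fold for Top2a, and WT with anti-PD-L1 was the lowest library for both. Smc4, a subunit of condensin, was at 253 CPM (anti-PD-L1) and 309 CPM (untreated) in Tet2KO, against 227 CPM (anti-PD-L1) and 380.4 CPM (untreated) in WT. Hmgb2, a chromatin protein abundant in dividing cells, had 1504 CPM in Tet2KO and 1253 CPM in WT under anti-PD-L1, and 1777 CPM in Tet2KO and 2197 CPM in WT without it. These 2 had their highest level in untreated WT cells, as most members did.

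**Figure D1:**
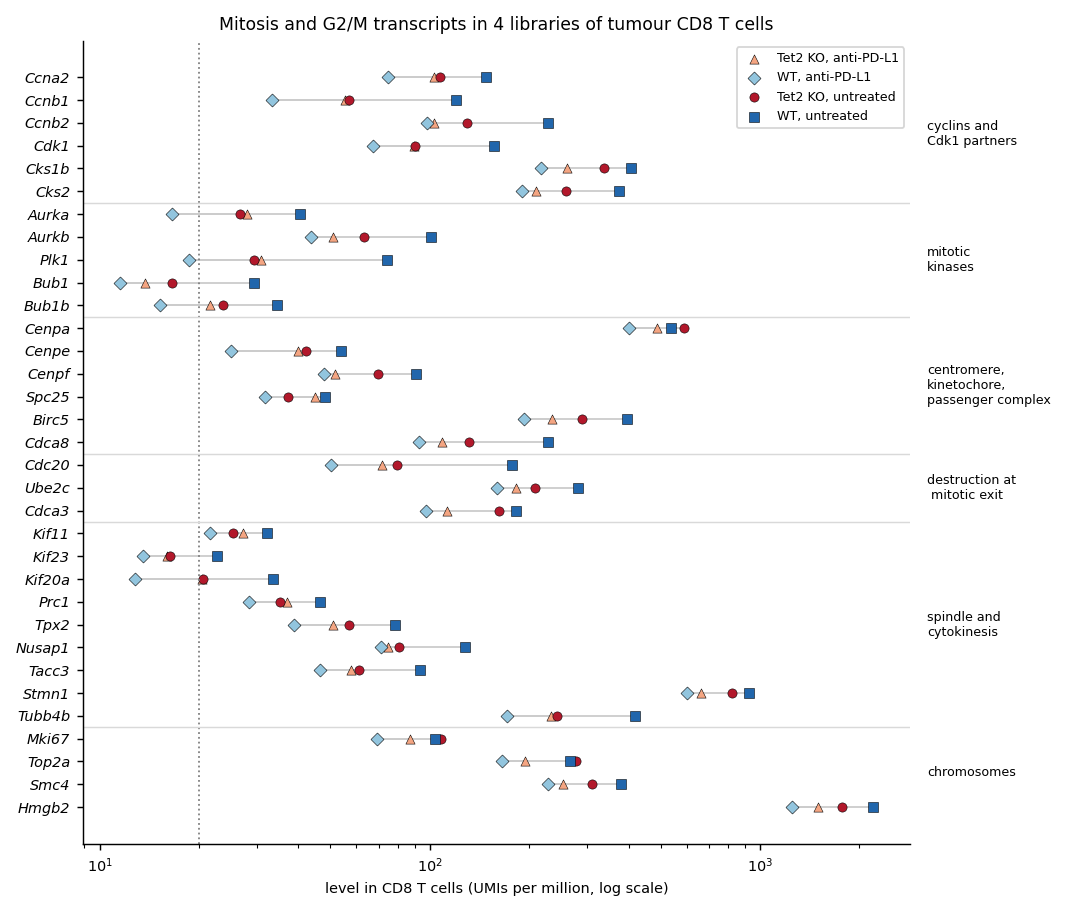
Level of each of the 33 genes in CD8 T cells (horizontal axis, CPM, log scale), 1 point per library, grouped by role, with the 20 CPM floor dotted. The squares of untreated WT cells lie farthest right for most genes, and the points of Mki67, Top2a and Cenpa in untreated Tet2KO cells lie as far right or farther.

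The first comparison set the untreated Tet2KO library against the untreated WT library, the one that stands apart by its clusters. Plk1, Cdc20 and Ccnb1 were lower in CD8 T cells of the Tet2KO library, and Mki67 and Top2a were at nearly equal levels. Plk1 was 2.52-fold lower, a log2 fold of −1.33 (95% interval −1.58 to −1.09), Cdc20 2.23-fold lower (−1.16 (95% interval −1.31 to −1.01)) and Ccnb1 2.10-fold lower (−1.07 (95% interval −1.25 to −0.89)). A gene is called apart here where its mean over the 4 libraries is at least 20 CPM and its fold at least 1.5. Of the 31 members past the floor 12 were called lower and 0 higher, beside 6.87% of all 4627 genes past it called lower and 7.85% called higher (363 higher and 318 lower, which became 442 higher and 218 lower with TMM scaling, a scaling by a trimmed mean of gene ratios). The median log2 fold of the members was −0.45 and that of all genes −0.10. By role the lower calls were 3 of 6 cyclins and partners, 3 of 4 kinases past the floor, 1 of 6 centromere and passenger genes, 1 of 3 destruction genes, 4 of 8 spindle genes and 0 of 4 chromosome genes. The others called lower were Ccnb2 (−0.81 (95% interval −0.94 to −0.69)), Cdk1 (−0.80 (95% interval −0.94 to −0.65)), Cdca8 (−0.79 (95% interval −0.92 to −0.67)) and Tubb4b (−0.78 (95% interval −0.87 to −0.69)), with Kif20a, Nusap1, Aurkb, Tacc3 and Aurka between −0.71 and −0.61. Mki67 had a log2 fold of 0.05 (95% interval −0.11 to 0.22) and Top2a of 0.06 (95% interval −0.04 to 0.16). Their sign turned to −0.12 and −0.14 where every cell counted equally, and Mki67 reached 0.32 in the other listing of the barcodes. Cenpa, with 0.13 (95% interval 0.06 to 0.20), was the member farthest above 0, while the share of cells with a Cenpa UMI ran the other way.

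The same genotypes were compared under anti-PD-L1, where the direction was the other one. All 31 members past the floor had a fold above 1 in Tet2KO cells, with a median log2 fold of 0.32 (range 0.07 to 0.75), beside 0.09 for all genes, of which 3165 of 4627 also had a fold above 1. Of these 5 were called higher and 0 lower, beside 1.08% of all genes called higher and 1.49% called lower (50 higher and 69 lower, or 29 and 85 with TMM scaling). The 5 were Aurka, 1.68-fold higher with a log2 fold of 0.75 (95% interval 0.44 to 1.07), Ccnb1 (0.73 (95% interval 0.51 to 0.95)), Plk1 (0.73 (95% interval 0.43 to 1.03)), Kif20a (0.68 (95% interval 0.31 to 1.04)) and Cenpe (0.67 (95% interval 0.41 to 0.93)). Of these, Aurka, Ccnb1, Plk1 and Kif20a were among the genes called lower in untreated Tet2KO cells. Kif20a passed the floor on its mean through its level in untreated WT cells. Cdc20 had a log2 fold of 0.51 (95% interval 0.33 to 0.70), Cdk1 of 0.41 (95% interval 0.25 to 0.57), Mki67 of 0.33 (95% interval 0.17 to 0.49) and Top2a of 0.22 (95% interval 0.12 to 0.33), all under 1.5-fold. With a floor of 50 CPM in place of 20, 1 member was called, and at 2-fold none.

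Anti-PD-L1 was then set against no treatment within each genotype. In WT cells nearly the whole set was lower with anti-PD-L1. Plk1 was 3.97-fold lower, with a log2 fold of −1.99 (95% interval −2.27 to −1.71), Ccnb1 3.59-fold lower (−1.84 (95% interval −2.06 to −1.63)) and Cdc20 3.54-fold lower (−1.82 (95% interval −1.995 to −1.65)). Of the 31 members 29 were called lower and 0 higher, beside 20.6% of all genes lower and 11.3% higher (525 higher and 952 lower, or 696 and 620 with TMM scaling, which moved the median of all genes to −0.04 from −0.18). The members' median log2 fold was −0.98, and −0.85 with TMM scaling, which left 24 called lower. The 2 not called were Cenpa (−0.43) and Kif11 (−0.57). Mki67 (−0.59 (95% interval −0.77 to −0.42)) was only just past 1.5-fold. Both WT libraries enter this comparison, and the untreated one is the library that stands apart by its clusters.

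In Tet2KO cells anti-PD-L1 and untreated libraries were close. No member was called, 0 higher and 0 lower of 31, beside 2.92% of all genes called higher and 1.08% called lower, and the median log2 fold was −0.16 (range −0.52 to 0.28). Top2a (−0.52 (95% interval −0.61 to −0.43)) and Cdca3 (−0.52 (95% interval −0.65 to −0.40)) lay lowest, and Spc25 (0.28 (95% interval 0.05 to 0.51)) highest. Plk1 had a log2 fold of 0.07 (95% interval −0.19 to 0.34) and Cdk1 of −0.01 (95% interval −0.16 to 0.14). With every cell weighted equally 3 members were called. These comparisons share libraries in pairs, so their values are not independent of one another.

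**Figure D2:**
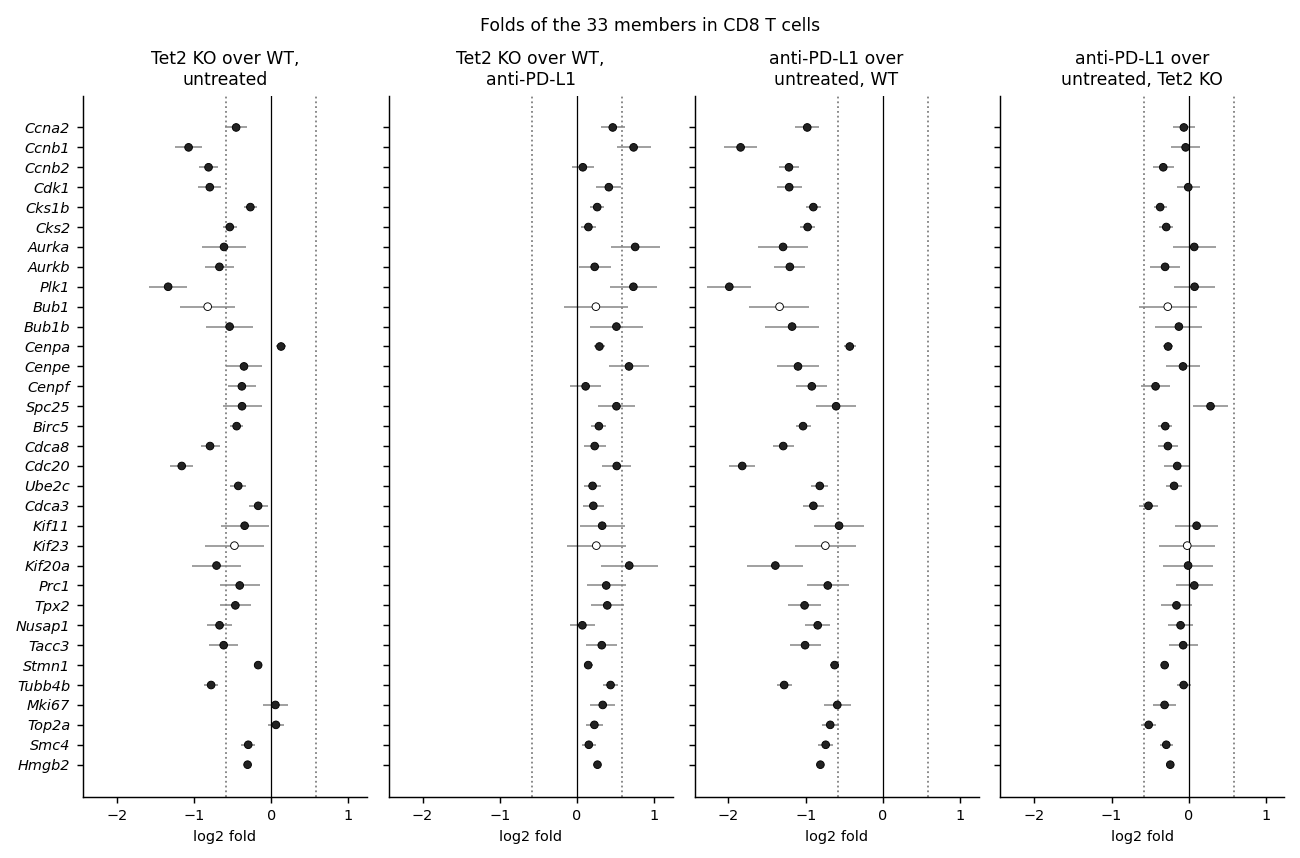
Log2 fold of each gene in CD8 T cells for the 4 comparisons (horizontal axis), with 95% counting intervals, 1.5-fold dotted and open points under the 20 CPM floor. Points lie mostly left of 0 for Tet2KO over WT untreated, right of 0 for Tet2KO over WT with anti-PD-L1, and far left for anti-PD-L1 over untreated in WT.

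A level over all cells of a class can differ because more cells carry these transcripts or because each such cell carries more, and the 2 were told apart in single cells. Every cell was thinned at random to 2500 UMIs, and cells below that were left out, 16 cells (anti-PD-L1) and 122 cells (untreated) in Tet2KO, against 65 cells (anti-PD-L1) and 187 cells (untreated) in WT. A cell was called mitosis-gene-positive if it held a UMI of at least 5 of 28 narrow members, which are the 33 without Hmgb2, Smc4, Tubb4b, Stmn1 and Cks1b, genes also made outside G2 and mitosis. The call describes transcripts and is not a count of cells seen to divide. It is not confined to G2 and mitosis either, since narrow members such as Ccna2 also act in S phase. Of positive CD8 T cells, between 68.5% (WT with anti-PD-L1) and 82.4% (WT untreated) also met a call on S phase genes, given below.

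Positive cells were fewer in untreated Tet2KO tumours than in untreated WT tumours, and somewhat more frequent in Tet2KO than in WT under anti-PD-L1. With anti-PD-L1 the positive share was 29.1% (95% interval 26.3% to 32.02%, 294 of 1010 cells) in Tet2KO and 22.8% (95% interval 20.5% to 25.2%, 286 of 1254 cells) in WT. Without it the share was 42.1% (95% interval 39.5% to 44.7%, 601 of 1429 cells) in Tet2KO and 66.8% (95% interval 63.7% to 69.8%, 626 of 937 cells) in WT. The Tet2KO minus WT difference was −24.8 percentage points untreated and 6.30 points with anti-PD-L1. Anti-PD-L1 minus untreated was −12.9 points in Tet2KO and −44.00 points in WT. No 2 of the 4 intervals overlapped. The order of the libraries was the same in 9 of 9 alternatives, which included other cell filters, another number of members and another depth. Without thinning the shares were 41.5% (anti-PD-L1) and 50.2% (untreated) in Tet2KO, against 30.4% (anti-PD-L1) and 72.7% (untreated) in WT. In cells as deposited, positive cells were the deeper ones, with median totals of 10529.5 UMIs in Tet2KO and 9162 UMIs in WT under anti-PD-L1, and 6171 UMIs in Tet2KO and 4640.5 UMIs in WT without it, against 5980.5 UMIs in Tet2KO and 4916 UMIs in WT under anti-PD-L1, and 3813 UMIs in Tet2KO and 3504 UMIs in WT without it in the other cells.

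The number of members seen in a cell was graded. The median CD8 T cell held UMIs of 2 (anti-PD-L1) and 3 (untreated) members in Tet2KO, against 1 (anti-PD-L1) and 6 (untreated) in WT. Cells with none of the 28 were 21.98% in Tet2KO and 29.7% in WT under anti-PD-L1, and 13.6% in Tet2KO and 2.56% in WT without it. Untreated WT cells with none were thus rare. At the boundary, with 4 or 5 members, lay 8.42% (anti-PD-L1) and 10.8% (untreated) in Tet2KO, against 6.86% (anti-PD-L1) and 16.01% (untreated) in WT of cells, so a positive call separates a range and not a cell type.

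**Figure D3:**
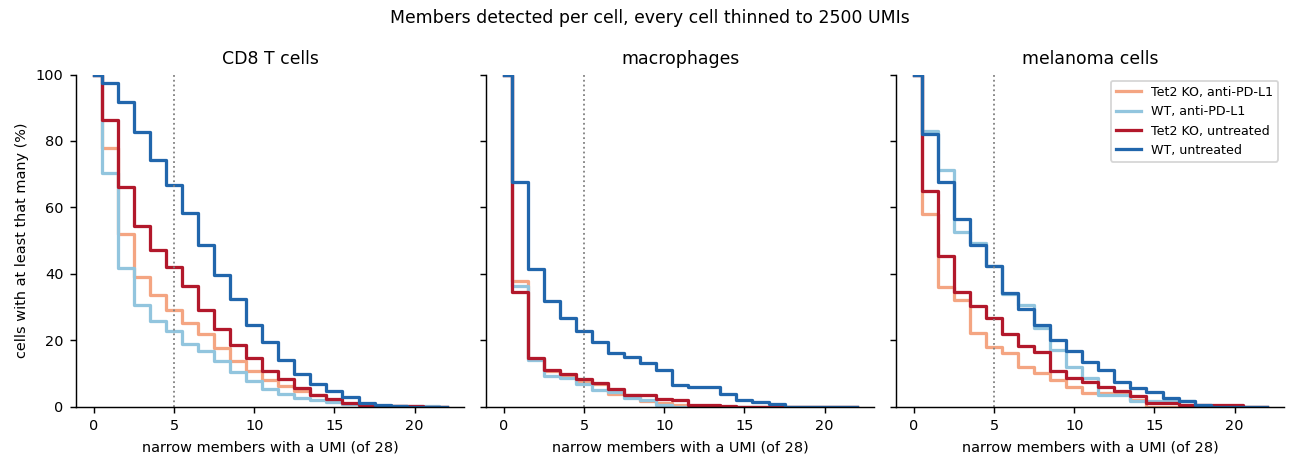
Share of cells (vertical axis, percent) with a UMI of at least the number of narrow members on the horizontal axis, every cell thinned to 2500 UMIs, with 1 line per library in CD8 T cells, macrophages and melanoma cells and the threshold of 5 dotted. In CD8 T cells the WT untreated line is the highest where it crosses the threshold, at 66.8%, and the WT anti-PD-L1 line the lowest there, at 22.8%.

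Positive cells of the 4 libraries held much the same amount of these transcripts. The 28 narrow members summed to 13.4 UMIs (anti-PD-L1) and 13.5 UMIs (untreated) in Tet2KO, against 13.3 UMIs (anti-PD-L1) and 13.5 UMIs (untreated) in WT per positive cell, and to 1.59 UMIs in Tet2KO and 1.27 UMIs in WT under anti-PD-L1, and 1.93 UMIs in Tet2KO and 3.11 UMIs in WT without it per other cell. Over all cells the sum was 6.79 UMIs per cell in untreated Tet2KO and 10.02 in untreated WT, a log2 fold of −0.56. WT levels in positive and in other cells, combined with the Tet2KO share of positive cells, give 7.46 UMIs per cell, a log2 fold of −0.43. The same reckoning gave 0.25 from the share alone beside 0.33 measured for Tet2KO over WT with anti-PD-L1, −0.36 beside −0.43 for anti-PD-L1 over untreated in Tet2KO, and −0.87 beside −1.32 in WT. The remainder lies mostly in the other cells, which in untreated WT held more of these transcripts than in any other library. The positive share and the level in positive cells both come from the 28 genes, and a cell needs 5 of them to count, which bounds its level from below.

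**Figure D4:**
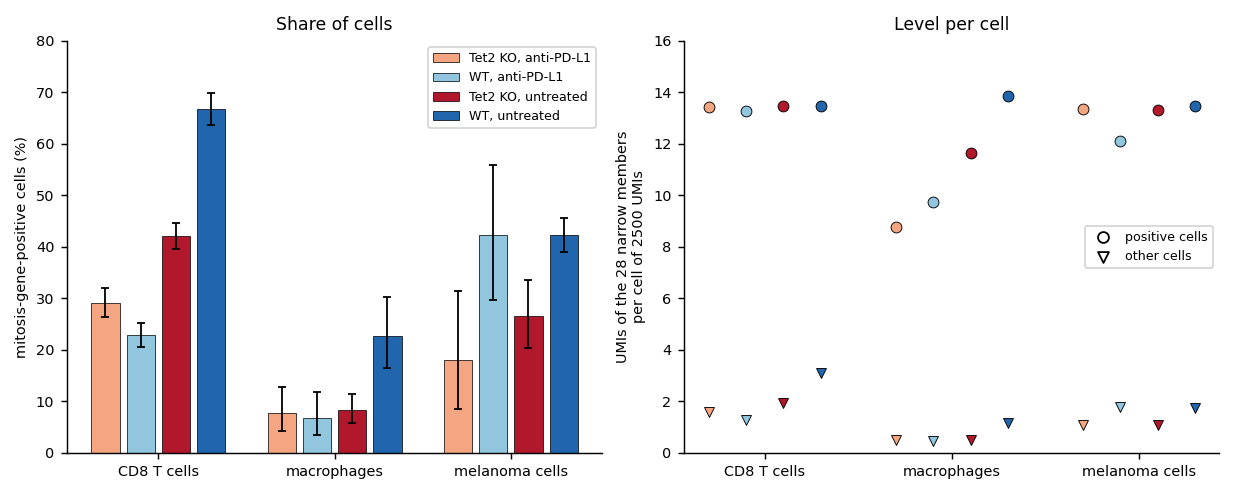
Left, mitosis-gene-positive cells (percent of cells, with 95% intervals) per library in 3 cell classes. Right, UMIs of the 28 narrow members per thinned cell, circles for positive and triangles for other cells, with the CD8 circles of all 4 libraries between 13.3 and 13.5 UMIs while the bars range between 22.8% and 66.8%.

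The shares were also read within clusters, formed without the cell cycle genes. In cluster 4, led by Serpinb9b, Gldc, Gzmf and Gzmb, positive cells made up 26.9% of 26 cells in Tet2KO with anti-PD-L1 and 53.3% of 30 in Tet2KO untreated, against 25.6% of 43 in WT with anti-PD-L1 and 65.9% of 361 in WT untreated. In cluster 2, led by Ccr7, Cnih2 and Nrn1, they made up 52.4% (anti-PD-L1) and 56.3% (untreated) in Tet2KO, against 38.6% (anti-PD-L1) and 65% (untreated) in WT, the last from 20 cells. In cluster 3, with Cxcr6, Ctla4 and Pdcd1 among its leading genes, they were 36.01% (anti-PD-L1) and 38.4% (untreated) in Tet2KO and 22.8% in WT with anti-PD-L1. In cluster 0, led by Tcf7, Izumo1r and Slamf6, they were 23.2% (anti-PD-L1) and 46.6% (untreated) in Tet2KO and 26.97% in WT with anti-PD-L1. Cluster 7, led by chemokine genes such as Ccl1, Xcl1 and Ccl3, had few, 6.77% (anti-PD-L1) and 10% (untreated) in Tet2KO and 10.8% in WT with anti-PD-L1. In cluster 1, with Gm156, haemoglobin genes, Izumo1r and Nrgn among its leading genes, they were 45.5% of 22 cells (anti-PD-L1) and 39.3% of 107 (untreated) in Tet2KO and 50% of 20 in WT with anti-PD-L1, an order unlike that of the class, from few cells. In cluster 5, led by Ccl5, Cxcr6 and Ifitm1, they were 15.1% (anti-PD-L1) and 16.3% (untreated) in Tet2KO and 12.5% in WT with anti-PD-L1. With anti-PD-L1, the Tet2KO share was thus above the WT share in clusters 2, 3 and 5 and close to it in cluster 4. It was below the WT share in clusters 0, 1 and 7. Among these clusters the 2 intervals were apart only in cluster 3, at 31.4% to 40.9% in Tet2KO and 18.5% to 27.5% in WT. Untreated WT cells were too few in clusters 0, 1, 3, 5 and 7 for a share. Cluster 14, where most untreated WT cells lay, was 68.1% positive there. It held 24 thinned cells of WT with anti-PD-L1, of which 66.7% were positive, and 11 of 16 cells of untreated Tet2KO were positive. Without the 3 clusters that have haemoglobin among their leading genes, an alternative chosen after seeing the data, the class was 31.7% (anti-PD-L1) and 44.2% (untreated) in Tet2KO, against 24.4% (anti-PD-L1) and 64.9% (untreated) in WT positive. Genotype and cluster are nearly confounded in the untreated pair, and their parts cannot be told apart.

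The level inside positive cells was measured gene by gene. For each member a cell counted as positive on 5 of the other members, so that the gene measured did not select its own cells. Between the untreated libraries the members differed among themselves. In positive cells of untreated Tet2KO tumours Plk1 had a log2 fold of −0.75 (−1.15 to −0.36) over WT, Cdc20 of −0.63 (−0.88 to −0.39), Aurkb of −0.60 (−0.93 to −0.27), Ccnb1 of −0.56 (−0.86 to −0.27) and Cdk1 of −0.47 (−0.73 to −0.21). Among the broad members Tubb4b had −0.44 (−0.59 to −0.28). On the other side stood Top2a (0.55 (0.37 to 0.72)), Mki67 (0.53 (0.27 to 0.80)), Cenpe (0.43 (0.05 to 0.82)) and Cenpa (0.41 (0.28 to 0.53)). Birc5 was at 0.01 (−0.14 to 0.16) and Hmgb2 at 0.03 (−0.03 to 0.09). Of the 28 narrow members 5 had intervals above 0 and 9 below, 0 were at least 1.5-fold higher and 3 at least 1.5-fold lower, and the median log2 fold was −0.13, against −0.73 over all thinned cells. No such count was made over all genes in positive cells, so these counts have no background share beside them. In these libraries, positive cells of untreated Tet2KO tumours held less Plk1, Cdc20 and Ccnb1 and more Top2a and Mki67 than those of untreated WT tumours. Plk1, Cdc20 and Ccnb1 also stood farthest apart over all CD8 T cells, which include the positive ones, so the 2 readings are not separate.

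The counts behind these ratios are small per cell. Plk1 was at 0.183 UMIs (anti-PD-L1) and 0.142 UMIs (untreated) in Tet2KO, against 0.127 UMIs (anti-PD-L1) and 0.240 UMIs (untreated) in WT per positive cell, and Cdc20 at 0.381 UMIs in Tet2KO and 0.316 UMIs in WT under anti-PD-L1, and 0.389 UMIs in Tet2KO and 0.603 UMIs in WT without it. Untreated WT cells were highest for both. Ccnb1 was at 0.280 UMIs (anti-PD-L1) and 0.272 UMIs (untreated) in Tet2KO, against 0.201 UMIs (anti-PD-L1) and 0.401 UMIs (untreated) in WT. Top2a was at 0.960 UMIs in Tet2KO and 1.04 UMIs in WT under anti-PD-L1, and 1.18 UMIs in Tet2KO and 0.806 UMIs in WT without it per positive cell, and Mki67 at 0.390 UMIs (anti-PD-L1) and 0.479 UMIs (untreated) in Tet2KO, against 0.407 UMIs (anti-PD-L1) and 0.331 UMIs (untreated) in WT. Here untreated Tet2KO cells were highest and untreated WT cells lowest. Birc5, at 1.27 UMIs in Tet2KO and 1.32 UMIs in WT under anti-PD-L1, and 1.29 UMIs in Tet2KO and 1.28 UMIs in WT without it, was level across the libraries.

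The same measure was taken in the other comparisons. Relative to untreated WT, positive cells of WT with anti-PD-L1 had lower Ccnb1 (−0.99 (−1.44 to −0.57)), Cdc20 (−0.93 (−1.29 to −0.60)), Plk1 (−0.91 (−1.48 to −0.38)) and Bub1 (−1.28 (−2.26 to −0.41)), and higher Top2a (0.37 (0.15 to 0.59)) and Cenpa (0.26 (0.10 to 0.41)). The untreated WT library is the denominator of this comparison and of the preceding one. Between the genotypes under anti-PD-L1, 2 narrow members had intervals above 0, Bub1 (1.01 (0.01 to 2.09)) and Bub1b (0.71 (0.002 to 1.44)), and 1 below, Nusap1 (−0.43 (−0.80 to −0.05)). The intervals of Bub1 and Bub1b reach almost to 0, and no share of all genes in positive cells stands beside these counts. Plk1 (0.52 (−0.12 to 1.18)) and Ccnb1 (0.47 (−0.03 to 0.99)) had intervals that held 0. Within Tet2KO, anti-PD-L1 over untreated gave Top2a −0.29 (−0.51 to −0.09), Kif11 0.78 (0.21 to 1.34), Bub1b 0.65 (0.07 to 1.22), Tacc3 0.44 (0.05 to 0.83) and Cdk1 0.37 (0.04 to 0.69). The median over the 28 was 0.07 for Tet2KO over WT under anti-PD-L1, 0.06 for anti-PD-L1 over untreated in Tet2KO and 0.05 in WT.

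**Figure D5:**
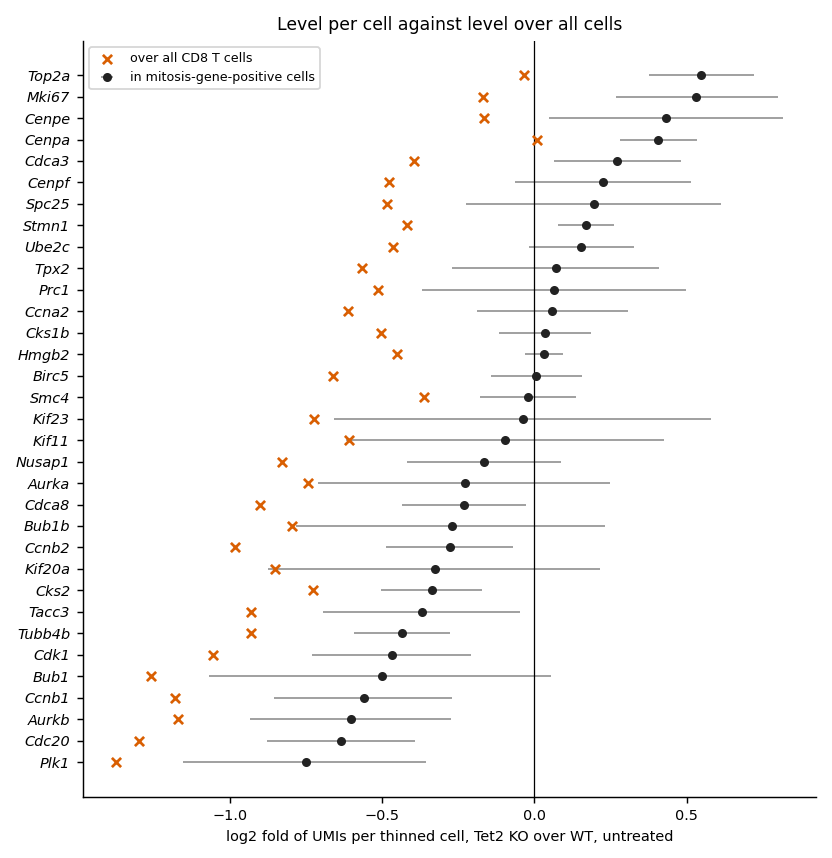
Log2 fold of UMIs per thinned CD8 T cell, Tet2KO over WT untreated (horizontal axis), for each gene in mitosis-gene-positive cells (points, 95% intervals) and over all CD8 T cells (crosses). Plk1, Cdc20, Aurkb and Ccnb1 lie left of 0 in positive cells, and Top2a, Mki67, Cenpe and Cenpa right of it, while nearly all crosses lie left of 0.

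By role, the mitotic kinases made up 3.23% (anti-PD-L1) and 2.59% (untreated) in Tet2KO, against 2.40% (anti-PD-L1) and 3.68% (untreated) in WT of the 33 members' UMIs in positive CD8 T cells. Cyclins and Cdk1 partners made up 15.3% in Tet2KO and 14.9% in WT under anti-PD-L1, and 14.7% in Tet2KO and 17.1% in WT without it. Both shares were highest in untreated WT cells. Chromosome genes made up 34.7% (anti-PD-L1) and 35.4% (untreated) in Tet2KO, against 34.5% (anti-PD-L1) and 33.2% (untreated) in WT, and centromere and passenger genes 18.01% in Tet2KO and 18.3% in WT under anti-PD-L1, and 18.3% in Tet2KO and 16.4% in WT without it, both lowest in untreated WT cells. The shares of destruction and spindle genes differed by at most 1 percentage point between libraries.

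Shares of cells with a UMI of single members followed the same order for most genes. Plk1 was seen in 5.35% (anti-PD-L1) and 6.16% (untreated) in Tet2KO, against 3.19% (anti-PD-L1) and 14.8% (untreated) in WT of thinned CD8 T cells, and 85.5% in Tet2KO and 81.8% in WT under anti-PD-L1, and 88.5% in Tet2KO and 91.4% in WT without it of its UMIs lay in positive cells. Cdc20 was seen in 9.60% (anti-PD-L1) and 13.02% (untreated) in Tet2KO, against 6.30% (anti-PD-L1) and 27.6% (untreated) in WT. Cdk1 was seen in 13.3% in Tet2KO and 10.4% in WT under anti-PD-L1, and 14.8% in Tet2KO and 27.5% in WT without it. Free RNA in droplets can give single UMIs to cells that do not make a transcript. At the same 2500 UMIs per cell, macrophages with a Plk1 UMI were 1.11% (anti-PD-L1) and 0.517% (untreated) in Tet2KO, against 0% (anti-PD-L1) and 7.14% (untreated) in WT, and with a Cdk1 UMI 5% in Tet2KO and 4.29% in WT under anti-PD-L1, and 4.39% in Tet2KO and 20.1% in WT without it, each below the CD8 share of its own library. The 0 stands for 0 of 163 thinned cells, which allows a share of up to 1.84% at that depth. Before thinning, 6 of the 176 macrophages of that library held a Plk1 UMI. Macrophages include mitosis-gene-positive cells, 22.7% of them in untreated WT, and also hold T cell RNA. Their shares therefore do not measure free RNA, whose part in the CD8 shares was not tested. Mki67 was seen in 11.1% (anti-PD-L1) and 17.9% (untreated) in Tet2KO, against 9.57% (anti-PD-L1) and 20.8% (untreated) in WT of CD8 T cells and Top2a in 24.7% in Tet2KO and 18.8% in WT under anti-PD-L1, and 36.9% in Tet2KO and 41.5% in WT without it. Cenpa was seen in 52.97% (anti-PD-L1) and 61.7% (untreated) in Tet2KO, against 43.2% (anti-PD-L1) and 66.3% (untreated) in WT. For these 3 genes the share and the CPM ran in opposite orders between the untreated genotypes, and no order is read from them. Hmgb2, at 77.1% (anti-PD-L1) and 84.95% (untreated) in Tet2KO, against 69.6% (anti-PD-L1) and 95.9% (untreated) in WT of cells, was the member seen in the most cells, with 6.77 UMIs in Tet2KO and 6.49 UMIs in WT under anti-PD-L1, and 6.64 UMIs in Tet2KO and 6.50 UMIs in WT without it per positive cell. As a description over single cells, the correlation of a member with the summed other narrow members reached its highest values for Hmgb2 (0.515 to 0.733 over the 4 libraries), Ube2c (0.543 to 0.650) and Birc5 (0.457 to 0.656), and was low for Bub1 (0.0757 to 0.250) and Bub1b (0.126 to 0.229), genes of few UMIs. Cells of 1 library share its free RNA.

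Other genes of G2 and mitosis, a list of 54 genes that are no members, were counted in the same way. Of all 4627 genes past the floor, 7.85% were higher and 6.87% lower for Tet2KO over WT untreated, and 1.08% and 1.49% with anti-PD-L1. For anti-PD-L1 over untreated, 2.92% were higher and 1.08% lower in Tet2KO, and 11.3% and 20.6% in WT. Of the 31 genes of the list past the floor, 10 were called lower and 0 higher in untreated Tet2KO against WT (median log2 fold −0.39), among them Ndc80, a kinetochore protein, and Mad2l1 of the spindle checkpoint. Under anti-PD-L1 3 were higher and 0 lower (0.29). Anti-PD-L1 over untreated gave 1 higher and 1 lower in Tet2KO (−0.15), and 0 higher and 21 lower in WT (−0.80). These genes took no part in the positive call, and positive cells held 25.3 UMIs (anti-PD-L1) and 24.03 UMIs (untreated) in Tet2KO, against 24.9 UMIs (anti-PD-L1) and 23.6 UMIs (untreated) in WT of them per cell, against 6.20 UMIs in Tet2KO and 5.15 UMIs in WT under anti-PD-L1, and 7.42 UMIs in Tet2KO and 13.1 UMIs in WT without it in the other cells.

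S phase genes, which serve DNA replication before mitosis, numbered 39, with 33 past the floor. Of these 7 were lower and 0 higher in untreated Tet2KO against WT (median log2 fold −0.37), and 1 higher and 0 lower with anti-PD-L1 (0.36). Anti-PD-L1 over untreated gave 0 higher and 1 lower in Tet2KO and 0 higher and 26 lower in WT (−0.17 and −0.91). The shares of all genes are those given for the preceding list. For anti-PD-L1 over untreated they were 1.08% lower in Tet2KO and 20.6% lower in WT. Cells with a UMI of at least 5 S phase genes made up 46.8% (anti-PD-L1) and 57.7% (untreated) in Tet2KO, against 34.6% (anti-PD-L1) and 81.96% (untreated) in WT of thinned CD8 T cells. Both calls together were met by 21.3% in Tet2KO and 15.6% in WT under anti-PD-L1, and 31.7% in Tet2KO and 55.1% in WT without it, and neither by 45.3% (anti-PD-L1) and 31.9% (untreated) in Tet2KO, against 58.2% (anti-PD-L1) and 6.30% (untreated) in WT. Untreated WT cells outside both programmes were thus few. Among mitosis-gene-positive cells, 73.1% in Tet2KO and 68.5% in WT under anti-PD-L1, and 75.4% in Tet2KO and 82.4% in WT without it also met the S phase call. Positive cells held 8.97 UMIs (anti-PD-L1) and 8.78 UMIs (untreated) in Tet2KO, against 7.95 UMIs (anti-PD-L1) and 10.2 UMIs (untreated) in WT of S phase genes, and other cells 4.70 UMIs in Tet2KO and 3.75 UMIs in WT under anti-PD-L1, and 5.66 UMIs in Tet2KO and 10.3 UMIs in WT without it, so that in untreated WT both kinds of cell held alike amounts.

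Most genes known to hold cells out of division were higher in untreated Tet2KO cells than in untreated WT cells. Of 9 brake and quiescence genes past the floor (13 in the list), 6 were higher and 0 lower in untreated Tet2KO against WT, with a median log2 fold of 1.13, beside the same 7.85% of all genes higher. Macrophages of the same pair of libraries had 6 of 9 higher and 1 lower (median 1.17), beside 12.8% of all genes higher and 12.5% lower in macrophages. Btg2, an antiproliferative gene, was at 413 CPM (anti-PD-L1) and 339.7 CPM (untreated) in Tet2KO, against 527 CPM (anti-PD-L1) and 99.5 CPM (untreated) in WT. Cdkn1a, the inhibitor p21 of cyclin-dependent kinases, was at 45.2 CPM in Tet2KO and 60.4 CPM in WT under anti-PD-L1, and 35.1 CPM in Tet2KO and 11.1 CPM in WT without it. Both were lowest in untreated WT cells. Btg1, a relative of Btg2, stood at 591 CPM (anti-PD-L1) and 487 CPM (untreated) in Tet2KO, against 787 CPM (anti-PD-L1) and 217 CPM (untreated) in WT, and Klf2, a transcription factor of resting T cells, at 74.9 CPM in Tet2KO and 192 CPM in WT under anti-PD-L1, and 128 CPM in Tet2KO and 77.9 CPM in WT without it. Under anti-PD-L1 0 of the 9 were higher and 1 lower in Tet2KO (Klf2, −1.36), beside 1.08% of all genes higher and 1.49% lower. Anti-PD-L1 over untreated gave 1 higher and 1 lower in Tet2KO and 7 higher and 1 lower in WT, where Cdkn2d, another inhibitor of cyclin-dependent kinases, was lower (−0.61). Of all genes, 2.92% were higher and 1.08% lower in Tet2KO, and 11.3% higher and 20.6% lower in WT. Summed over the list, positive cells held 3.74 UMIs (anti-PD-L1) and 3.83 UMIs (untreated) in Tet2KO, against 4.52 UMIs (anti-PD-L1) and 2.05 UMIs (untreated) in WT and other cells 4.60 UMIs in Tet2KO and 6.20 UMIs in WT under anti-PD-L1, and 4.02 UMIs in Tet2KO and 1.67 UMIs in WT without it, so that untreated WT cells had the least of both kinds.

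Regulators of the G2/M genes, 8 of 16 past the floor, had 1 called higher and 0 lower in untreated Tet2KO against WT, and 1 higher and 0 lower with anti-PD-L1, beside 7.85% and 1.08% of all genes higher. Lin54, the DNA-binding subunit of MuvB, was the gene called in untreated cells, at 37.2 CPM (anti-PD-L1) and 39.5 CPM (untreated) in Tet2KO, against 41.4 CPM (anti-PD-L1) and 13.8 CPM (untreated) in WT, a log2 fold of 1.52. In macrophages Lin54 was also called higher against the untreated WT library, with log2 folds of 2.25 for Tet2KO over WT and 2.40 for anti-PD-L1 over untreated in WT. Under anti-PD-L1 it was Mybl2, which encodes B-Myb (0.61). Of the G1 genes, 7 of 9 past the floor, Ccnd2 (0.96) and Myc (0.87) were higher and Cdk6 (−0.63) lower in untreated Tet2KO against WT, and 0 were called between the genotypes with anti-PD-L1. Of all genes, 7.85% were higher and 6.87% lower untreated, and 1.08% and 1.49% with anti-PD-L1.

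Macrophages carried the same genes at lower levels, 1212 CPM (anti-PD-L1) and 1463 CPM (untreated) in Tet2KO, against 1113 CPM (anti-PD-L1) and 2951 CPM (untreated) in WT summed over the 33. Untreated tumours with WT T cells were again highest. Cdk1 was at 21.3 CPM (anti-PD-L1) and 26.6 CPM (untreated) in Tet2KO, against 19.8 CPM (anti-PD-L1) and 98.6 CPM (untreated) in WT in macrophages, Ccnb2 at 28.2 CPM in Tet2KO and 11.6 CPM in WT under anti-PD-L1, and 34.1 CPM in Tet2KO and 86.8 CPM in WT without it and Mki67 at 13.3 CPM (anti-PD-L1) and 27.1 CPM (untreated) in Tet2KO, against 17.3 CPM (anti-PD-L1) and 41.2 CPM (untreated) in WT. Only 19 members passed the floor of 20 CPM, and the 14 under it included Plk1, Aurka, Bub1 and most spindle genes. Of the 19, Ccnb1, Aurkb and Cdc20 reached 20 CPM in the untreated WT library alone, so they passed through the library where they are high, and counts are given with and without them, a choice made after seeing the data. Mki67 and Ccna2 also passed on their mean through that library. Ccna2 was at 15.6 CPM (anti-PD-L1) and 21 CPM (untreated) in Tet2KO, against 15.7 CPM (anti-PD-L1) and 33.9 CPM (untreated) in WT. Both stay in all counts, so the counts without the 3 genes are not free of this selection. In untreated tumours 17 of the 19 were lower and 0 higher with Tet2KO than with WT T cells (median log2 fold −1.06), beside 12.5% of 4655 genes lower and 12.8% higher (595 higher and 584 lower, or 779 and 397 with TMM scaling). Without the 3 genes 14 of 16 were lower and 0 higher (median −0.95). Cdc20 had 14.99 CPM (anti-PD-L1) and 15.4 CPM (untreated) in Tet2KO, against 8.26 CPM (anti-PD-L1) and 57.4 CPM (untreated) in WT. Under anti-PD-L1 3 were higher, Ccnb2, Ube2c and Cdc20, and 1 lower, Aurkb, with Tet2KO T cells, beside 6.94% and 5.03% of all genes. Anti-PD-L1 over untreated gave 1 higher and 5 lower with Tet2KO T cells, beside 5.89% and 3.31%, and 0 higher and 19 lower with WT T cells, beside 14.2% and 15.8% (659 higher and 735 lower, or 839 and 537 with TMM scaling). Without the 3 genes, 2 of 16 were higher and 0 lower for Tet2KO over WT with anti-PD-L1, 0 higher and 4 lower for anti-PD-L1 over untreated in Tet2KO, and 0 higher and 16 lower for the same in WT.

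Mitosis-gene-positive macrophages made up 7.78% (95% interval 4.32% to 12.7%, 14 of 180 cells) in Tet2KO and 6.75% (95% interval 3.42% to 11.8%, 11 of 163 cells) in WT with anti-PD-L1, and 8.27% (95% interval 5.72% to 11.5%, 32 of 387 cells) in Tet2KO and 22.7% (95% interval 16.4% to 30.2%, 35 of 154 cells) in WT without it. The untreated WT library alone stood above the rest. Thinning left out 50 of its 204 macrophages as too shallow. In the others it left out 1 of 181 (Tet2KO with anti-PD-L1), 19 of 406 (Tet2KO untreated) and 13 of 176 (WT with anti-PD-L1). Median totals were 9110 UMIs (anti-PD-L1) and 4818 UMIs (untreated) in Tet2KO, against 5877 UMIs (anti-PD-L1) and 3003.5 UMIs (untreated) in WT. Positive macrophages were the deeper ones, at medians of 3968 against 3157 UMIs in untreated WT. What the loss did to the shares was not tested on its own. T cell RNA was present in the class. Its CD8, CD3 and Trac markers were at 4.70% (anti-PD-L1) and 9.97% (untreated) in Tet2KO, against 9.19% (anti-PD-L1) and 10.1% (untreated) in WT of their level in CD8 T cells. Multiplied by the members' level in CD8 T cells this comes to 259 CPM in Tet2KO and 423 CPM in WT under anti-PD-L1, and 656 CPM in Tet2KO and 856 CPM in WT without it, or 21.4% (anti-PD-L1) and 44.8% (untreated) in Tet2KO, against 38.05% (anti-PD-L1) and 29.00% (untreated) in WT of the members' summed level in macrophages. The part of T cell RNA and of doublets in these values was not tested gene by gene. Leaving out macrophages with 2 or more UMIs of another class's markers gave positive shares of 6.82% in Tet2KO and 2.78% in WT under anti-PD-L1, and 4.96% in Tet2KO and 21.7% in WT without it.

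Melanoma cells showed another order. Their 33 members summed to 2397 CPM (anti-PD-L1) and 3271 CPM (untreated) in Tet2KO, against 4632 CPM (anti-PD-L1) and 4471 CPM (untreated) in WT, with both Tet2KO libraries below both WT libraries. The class held 50 cells (anti-PD-L1) and 190 cells (untreated) in Tet2KO, against 59 cells (anti-PD-L1) and 929 cells (untreated) in WT, so the anti-PD-L1 values rest on few cells. Cdc20 was at 31.00 CPM (anti-PD-L1) and 51.9 CPM (untreated) in Tet2KO, against 91.1 CPM (anti-PD-L1) and 119.6 CPM (untreated) in WT, Cdk1 at 87.9 CPM in Tet2KO and 183 CPM in WT under anti-PD-L1, and 135 CPM in Tet2KO and 201 CPM in WT without it and Tpx2 at 32.3 CPM (anti-PD-L1) and 50.2 CPM (untreated) in Tet2KO, against 83.6 CPM (anti-PD-L1) and 70.6 CPM (untreated) in WT in melanoma cells. Mki67 was at 37.96 CPM in Tet2KO and 80.9 CPM in WT under anti-PD-L1, and 50.5 CPM in Tet2KO and 66.9 CPM in WT without it and Top2a at 142 CPM (anti-PD-L1) and 171 CPM (untreated) in Tet2KO, against 189.6 CPM (anti-PD-L1) and 176 CPM (untreated) in WT. For Top2a the 4 libraries lay close together. In untreated tumours 10 of 30 members past the floor were lower and 0 higher with Tet2KO T cells (median log2 fold −0.46), beside 4.25% of 5505 genes lower and 6.36% higher (350 higher and 234 lower, or 269 and 363 with TMM scaling), with Cdc20 at −1.21 (95% interval −1.46 to −0.96). Under anti-PD-L1 26 were lower and 0 higher (−1.07), beside 9.34% of genes lower and 7.19% higher, with Cdc20 at −1.55 (95% interval −2.04 to −1.09). A stricter cell filter left 5 called. Anti-PD-L1 over untreated gave 12 lower and 0 higher with Tet2KO T cells, beside 4.54% and 2.76% (152 higher and 250 lower, or 189 and 192 with TMM scaling), and 0 lower and 0 higher with WT T cells, beside 2.83% and 3.49%. The count of 12 in Tet2KO was 5 with TMM scaling, 3 with a stricter cell filter, 3 with every cell weighted equally and 21 without the highest cell per member, and rests on 50 treated cells.

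Positive melanoma cells made up 18% (95% interval 8.58% to 31.4%, 9 of 50 cells) in Tet2KO and 42.4% (95% interval 29.6% to 55.9%, 25 of 59 cells) in WT with anti-PD-L1, and 26.6% (95% interval 20.4% to 33.5%, 50 of 188 cells) in Tet2KO and 42.3% (95% interval 39.1% to 45.5%, 389 of 920 cells) in WT without it. The untreated pair had intervals that did not overlap, and the anti-PD-L1 pair had overlapping ones. These intervals too cover only the counting of cells and no spread between tumours. Melanoma cells differed in depth, with median totals of 31762 UMIs (anti-PD-L1) and 13918 UMIs (untreated) in Tet2KO, against 28457 UMIs (anti-PD-L1) and 10199 UMIs (untreated) in WT, and without thinning the shares were 68% (anti-PD-L1) and 49.5% (untreated) in Tet2KO, against 71.2% (anti-PD-L1) and 68.5% (untreated) in WT, which brings the anti-PD-L1 pair close and puts Tet2KO with anti-PD-L1 above Tet2KO untreated. Per positive cell the 28 narrow members summed to 13.3 UMIs (anti-PD-L1) and 13.3 UMIs (untreated) in Tet2KO, against 12.1 UMIs (anti-PD-L1) and 13.4 UMIs (untreated) in WT. The median log2 fold in positive cells was −0.03 for Tet2KO over WT untreated and 0.40 with anti-PD-L1, against −0.66 and −0.95 over all thinned cells. The 0.40 compares 9 with 25 positive cells, and of the 28 intervals 0 lay above 0 and 0 below. A count of 0 was set to 3, which gives genes unseen in the 9 cells a raised level, so no direction is read from it. In the untreated pair, as in CD8 T cells, the difference over all cells was larger than that inside positive cells. Positive cells are chosen by genes of the same set, so the smaller difference inside them is partly set by the call. The untreated WT tumour had the most melanoma cells in its library. Melanoma marker RNA in CD8 T cells was at 15.2 CPM (anti-PD-L1) and 27.8 CPM (untreated) in Tet2KO, against 21.1 CPM (anti-PD-L1) and 98.1 CPM (untreated) in WT. CD8 T cells with 2 or more UMIs of another class's markers made up 2.73% (anti-PD-L1) and 2.26% (untreated) in Tet2KO, against 2.35% (anti-PD-L1) and 8.72% (untreated) in WT of the class, again the most in untreated WT. Multiplied by the members' level in melanoma cells, the melanoma marker RNA comes to 26.2 CPM of the 33 members in untreated WT CD8 T cells, 0.311% of their sum there.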

How the data were processed

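Single-cell RNA sequencing was used from 4 libraries of the series' 20 samples. The 8 RNA and 8 ATAC sequencing samples were not analysed here. Each table holds raw UMI counts deposited by the authors, 1 line per barcode. The submitters' processing notes list mm10 as the build and, with no role stated, DESeq2, bedtools, HTSeq, Genrich 0.5, Bowtie2, HISAT2 and Trim Galore 0.5.0. How UMIs were counted, on which annotation, and how cells were called is not given in the sources used here, and a transcript's count is of 3′ ends. Each table lists most barcodes in 2 forms, with 1 or 2 hyphens, and 54.3% to 79.5% of the members' nonzero entries differ between the forms. The form with 2 hyphens was used (1346 and 2312 barcodes in Tet2KO with anti-PD-L1 and untreated, 1680 and 2384 in WT), and the other was an alternative. Libraries shared 1 to 10 barcodes per pair.

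Kept barcodes had 500 or more genes and no more than 10% of UMIs on mitochondrial genes. Leiden clustering at resolution 1 (scanpy 1.11.5, igraph 0.11.9) used 15 neighbours over 30 components of 2000 variable genes, from log values scaled to 10000 UMIs per cell, with 126 cell cycle genes left out. A cluster was taken as CD8 T cells where CD8 and CD3 levels each reached at least 0.5 of the highest cluster's, and macrophages and melanoma cells were named from their own markers. No doublet caller was run, and doublets were addressed by leaving out cells with at least 2 UMIs of another class's markers. In melanoma cells this left out 859 of 929 cells (92.5%) in WT untreated and 50 of 50 (100%) in Tet2KO with anti-PD-L1, the lowest and highest shares. In that class the rule therefore cannot tell doublets apart. UMIs were summed per library and class and given as CPM (per 1000000 UMIs). A fold is a ratio of CPM with an exact conditional binomial 95% interval, a count of 0 being set to 3, and a share has an exact Clopper-Pearson interval. Thinning to 2500 UMIs drew UMIs without replacement. TMM factors came from edgeR 4.0.16. The steps were tested on simulated counts. Versions were Python 3.11.15, numpy 2.4.6, scipy 1.17.1 and pandas 2.3.3. All 33 members are described, with levels in each library for those past 1.5-fold in a CD8 comparison and for Mki67, Top2a and Cdk1. From other lists, the genes named were those past 1.5-fold with the largest folds or those highest in mean level. The members and lists were chosen with earlier results of these data known.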

Additional observations from a re-analysis of the deposited data

Results flagged for a closer look

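Several values stood on opposite sides in the 2 genotype comparisons. The share of mitosis-gene-positive CD8 T cells differed by −24.8 percentage points (Tet2KO minus WT) without anti-PD-L1 and by 6.30 points with it. In macrophages the same difference was −14.5 points without and 1.03 points with anti-PD-L1. The 1.03 points rest on 14 of 180 against 11 of 163 macrophages, with overlapping intervals, and are not read as a reversal. Ccnb1 in CD8 T cells had a log2 fold (Tet2KO over WT) of −1.07 without anti-PD-L1 and of 0.73 with it. Aurka in CD8 T cells had a log2 fold (Tet2KO over WT) of −0.61 without anti-PD-L1 and of 0.75 with it. Plk1 in CD8 T cells had a log2 fold (Tet2KO over WT) of −1.33 without anti-PD-L1 and of 0.73 with it. Kif20a in CD8 T cells had a log2 fold (Tet2KO over WT) of −0.71 without anti-PD-L1 and of 0.68 with it. The difference between the treatment arms was not tested, since each value rests on 1 library per group. The 4 genes are those called apart in both comparisons. Kif20a, with 33.6 CPM in untreated WT cells and 12.8 CPM in WT cells with anti-PD-L1, passed the floor on its mean through the former.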

How the results depend on the processing

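No called member changed its direction under any alternative run, and the order of the 4 CD8 shares was kept in 9 of 9. The ratio of positive shares ran between 0.590 and 0.691 for Tet2KO over WT untreated and between 1.25 and 1.43 with anti-PD-L1. No paired analysis was possible because each group has 1 library and the libraries carry no replicate numbers. Alternatives for the level in positive cells, and leaving out the clusters with haemoglobin among their leading genes or the members past the floor in untreated WT alone, were chosen after seeing the data. Counts of members called depended on the rule, by its own construction where the floor or the fold changed. Elsewhere the cause was not tested. Without the members past the floor in untreated WT alone, the macrophage count for Tet2KO over WT with anti-PD-L1 was 2. Kif20a passed on its mean through its untreated WT level in CD8 T cells and melanoma cells, and stays in their counts. With a floor of 50 CPM the members called were 1 in CD8 T cells for Tet2KO over WT with anti-PD-L1, and in macrophages 8 for Tet2KO over WT untreated, 1 for Tet2KO over WT with anti-PD-L1, 2 for anti-PD-L1 over untreated in Tet2KO and 10 for anti-PD-L1 over untreated in WT. At 2-fold they were 3 for Tet2KO over WT untreated, 0 for Tet2KO over WT with anti-PD-L1 and 15 for anti-PD-L1 over untreated in WT in CD8 T cells, 10 for Tet2KO over WT untreated, 2 for Tet2KO over WT with anti-PD-L1 and 2 for anti-PD-L1 over untreated in Tet2KO in macrophages and 2 for Tet2KO over WT untreated and 1 for anti-PD-L1 over untreated in Tet2KO in melanoma cells. With no floor they were 29 for Tet2KO over WT untreated, 9 for Tet2KO over WT with anti-PD-L1, 11 for anti-PD-L1 over untreated in Tet2KO and 33 for anti-PD-L1 over untreated in WT in macrophages. With each cell weighted equally they were 3 for anti-PD-L1 over untreated in Tet2KO in CD8 T cells, 2 for anti-PD-L1 over untreated in Tet2KO in macrophages, and 3 for anti-PD-L1 over untreated in Tet2KO and 1 for anti-PD-L1 over untreated in WT in melanoma cells. Without the highest cell per member they were 2 for Tet2KO over WT with anti-PD-L1 in macrophages, and 21 for anti-PD-L1 over untreated in Tet2KO and 2 for anti-PD-L1 over untreated in WT in melanoma cells. TMM scaling gave 5 for anti-PD-L1 over untreated in Tet2KO in melanoma cells, the stricter cell filter 5 for Tet2KO over WT with anti-PD-L1 and 3 for anti-PD-L1 over untreated in Tet2KO in melanoma cells, and the other listing 1 for anti-PD-L1 over untreated in Tet2KO in CD8 T cells.

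Positive shares depend on the definition. With at least 3 members they were 39.01% (Tet2KO with anti-PD-L1), 54.5% (Tet2KO untreated), 30.5% (WT with anti-PD-L1) and 82.8% (WT untreated) in CD8 T cells, 31.8% (WT untreated) in macrophages, and 32% (Tet2KO with anti-PD-L1), 34.6% (Tet2KO untreated) and 56.4% (WT untreated) in melanoma cells. With at least 8 they were 17.5% (Tet2KO with anti-PD-L1), 23.4% (Tet2KO untreated), 13.8% (WT with anti-PD-L1) and 39.7% (WT untreated) in CD8 T cells, 3.33% (Tet2KO with anti-PD-L1), 3.62% (Tet2KO untreated), 2.45% (WT with anti-PD-L1) and 14.9% (WT untreated) in macrophages, and 16.5% (Tet2KO untreated), 23.7% (WT with anti-PD-L1) and 24.7% (WT untreated) in melanoma cells. Thinning to 1500 UMIs gave 20.4% (Tet2KO with anti-PD-L1), 27.3% (Tet2KO untreated), 14.3% (WT with anti-PD-L1) and 43.7% (WT untreated) in CD8 T cells, 3.31% (Tet2KO with anti-PD-L1), 5.42% (Tet2KO untreated), 2.84% (WT with anti-PD-L1) and 13.2% (WT untreated) in macrophages, and 17.9% (Tet2KO untreated), 27.1% (WT with anti-PD-L1) and 27.8% (WT untreated) in melanoma cells. Without thinning they were 41.5% (Tet2KO with anti-PD-L1), 50.2% (Tet2KO untreated), 30.4% (WT with anti-PD-L1) and 72.7% (WT untreated) in CD8 T cells, 13.8% (Tet2KO with anti-PD-L1) and 12.3% (Tet2KO untreated) in macrophages, and 68% (Tet2KO with anti-PD-L1), 49.5% (Tet2KO untreated), 71.2% (WT with anti-PD-L1) and 68.5% (WT untreated) in melanoma cells. Without cells holding markers of another class they were 4.96% (Tet2KO untreated) and 2.78% (WT with anti-PD-L1) in macrophages and 26.98% (WT untreated) in melanoma cells. That alternative left too few melanoma cells for a value in the other 3 libraries. It also left out 92.5% of the untreated WT melanoma cells, so the 26.98% rests on the few that remained. Macrophages and the melanoma cells of the anti-PD-L1 libraries are limited by their small number, and a single UMI per cell by depth.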
